A study of Mus musculus with 12 samples.

Results

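The genes described are the mouse interleukins and interleukin receptors, genes whose symbol on the array starts with Il and a digit. Each was read from 1 transcript cluster, the array's probe set for a gene. Clusters annotated with more than 1 symbol were left out. The family is not complete: Il1rl1, Il2rg and Il12b, among others, are not in the list. The rule found 76 genes among 19505 with a symbol, 36 ligands, 36 receptor chains and 4 antagonists or binding proteins, and each had a single cluster. They were measured in the nucleus pulposus (NP), the gel-like core of the intervertebral disc, and in the annulus fibrosus (AF), the fibrous ring around it. Both tissues came from lumbar discs, L1 to S1, of C57BL/6 mice aged 12 months. The 4 groups, with 3 arrays each, were NP of TonEBP +/- mice, NP of WT (wild-type) mice, AF of TonEBP +/- mice and AF of WT mice. TonEBP +/- mice are haploinsufficient for TonEBP, the transcription factor, encoded by Nfat5, that switches on osmoprotective genes in hyperosmotic surroundings such as the disc. Every sample held the pooled discs of 1 animal, the labels do not tie an NP sample to an AF sample of the same mouse, and how the allele was made is not given in the labels. Values are log2 signals as the authors deposited them, with n = 3 animals per group. Standard errors (SE) and intervals rest on 1 spread between animals per gene, which the 4 groups of both tissues share.

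Interleukins are secreted signals between immune cells, and between immune and tissue cells. IL-1 alpha and IL-1 beta bind Il1r1, which recruits the co-receptor Il1rap; the antagonist Il1rn occupies Il1r1 without recruiting it, and Il1r2 is a decoy that binds IL-1 and does not signal. IL-6 needs Il6ra to bind and Il6st (gp130) to signal, and IL-18 uses Il18r1 with Il18rap. In disc cells IL-1 beta is known for inducing matrix-degrading enzymes and further cytokines, but its precursor must be cleaved before release, so an mRNA level is not a level of active cytokine.

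Array medians were 6.82 to 6.87 log2 in NP and 7.43 to 7.64 in AF, so signals of the tissues are not on one scale and each NP-against-AF change below was read on both the deposited values and values with array medians subtracted. An array's background level was set at the 95th percentile of its 23 background probe sets, 7.11 to 7.33 log2 in NP and 7.73 to 7.98 in AF, a strict level because those probe sets differ in GC content. The signals of AF array 3 of TonEBP +/- mice were more spread out: their interquartile range was 3.11 log2, and that of the remaining AF arrays 2.36 to 2.66. Replicates spread more in AF, where the median SD over all clusters was 0.38 in TonEBP +/- and 0.27 in WT, than in NP, where it was 0.23 and 0.24. Nfat5 itself ran from 9.06 to 9.62 in NP of TonEBP +/- mice and 8.34 to 9.12 in NP of WT mice, and from 8.74 to 8.94 in AF of TonEBP +/- mice and 7.70 to 9.93 in AF of WT mice. It was not lower in TonEBP +/- in either tissue (change 0.50, 95% CI -0.35 to 1.36, in NP and 0.09, 95% CI -0.77 to 0.94, in AF), and whether its probes lie in the altered part of the gene is not known here. Of the AF markers, Tnmd, Scx and Mkx were above background on no AF array while Col1a1, Col1a2, Thbs2 and Fmod were on all, and of the NP markers Foxa1 and Foxa2 were above background on no NP array while Krt8, Krt18, Krt19, Car3, Cd24a and Shh were on all. Noto was lower in NP than in AF as deposited (-1.10 in TonEBP +/- and -0.64 in WT mice), but no NP marker was called lower on both scales in either genotype. The AF marker Fmod was higher in NP (5.79 in TonEBP +/- and 3.51 in WT mice, as deposited).

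Receptor chains were above background more often than ligands: 22 of 36 receptor chains passed the level on at least 1 array, and 11 of 36 ligands. Of the 76 genes, 13 were above background on all 12 arrays, 22 on 1 to 11 arrays and 41 on none. Those on all arrays were 11 receptor chains (Il6st, Il13ra1, Il10rb, Il17ra, Il6ra, Il17rc, Il10ra, Il15ra, Il18rap, Il1r1 and Il3ra) and 2 ligands (Il16 and Il17b). Over all 22206 clusters of the array, 28.1% were above background on every array and 37.5% on none, against 17.1% and 53.9% of the interleukin genes. Per group, 18 genes were above background on at least 2 of 3 arrays in NP of TonEBP +/- mice, 20 in NP of WT mice, 23 in AF of TonEBP +/- mice and 22 in AF of WT mice, and 28 genes in at least 1 group. Those below background on every array were 25 ligands, among them Il2, Il3, Il4, Il5, Il6, Il10, Il13 and Il33, with signals of 3.50 to 7.87, 14 receptor chains at 3.49 to 7.66, and Il1f5 and Il22ra2 at 3.83 to 7.04. The 6 genes Il15, Il1f6, Il5ra, Il9r, Il17rb and Il18bp passed the level on 1 array of a group at most. No level or change can be read for genes below background, and a signal there does not show that the gene is silent.

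**Figure D1:**
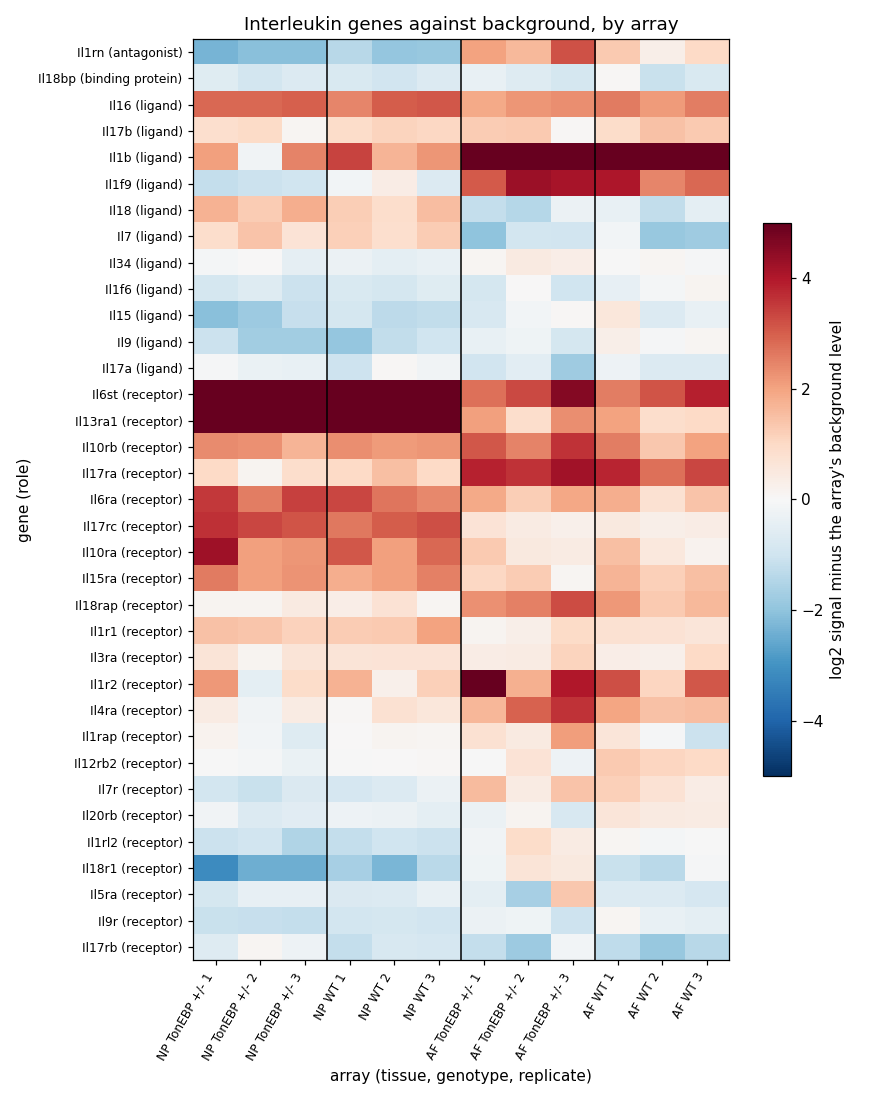
Log2 signal minus the background level of the same array for the 35 interleukin genes above background on at least 1 array, by gene (rows, with role) and array (columns, NP left of AF and TonEBP +/- left of WT within each tissue). Il6st and Il13ra1 are redder in NP than in AF columns and Il1b, Il1f9 and Il17ra redder in AF columns, and the colour scale ends at 5 in both directions.

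Il6, Il1a and Il10, ligands often measured in disc degeneration, were below background on all 12 arrays. Il6, the gp130 cytokine of acute inflammation, was at 4.83, 5.33 and 5.05 in NP of TonEBP +/- mice and 4.88, 4.28 and 5.39 in NP of WT mice. In AF it was at 7.06, 6.15 and 6.45 in TonEBP +/- mice and 6.17, 6.64 and 6.22 in WT mice. Il1a, the IL-1 alpha gene, was at 4.39, 5.29 and 4.15 in NP of TonEBP +/- mice and 4.40, 4.10 and 4.58 in NP of WT mice. Its AF values were 6.73, 6.96 and 6.45 in TonEBP +/- mice and 7.38, 6.64 and 6.77 in WT mice. Il10, which encodes an anti-inflammatory cytokine, was at 5.94, 5.89 and 6.70 in NP of TonEBP +/- mice and 5.70, 6.12 and 6.13 in NP of WT mice. The AF arrays had 6.27, 6.77 and 6.35 in TonEBP +/- mice and 7.25, 7.00 and 5.70 in WT mice. None of these readings passed its array's level, so no change is given for these 3 genes. Il17a, the T cell cytokine that acts on Il17ra and Il17rc, was at 7.06, 6.86 and 6.84 in NP of TonEBP +/- mice and 6.31, 7.28 and 6.95 in NP of WT mice. AF signals of the gene were 7.03, 7.29 and 6.15 in TonEBP +/- mice and 7.47, 7.25 and 7.15 in WT mice. Of the 12 arrays, NP array 2 of WT mice alone passed the level for Il17a.

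The 3 ligands above background on at least 9 of 12 arrays were Il1b, Il16 and Il17b. Il16, whose precursor yields a chemoattractant for CD4+ cells, was at 10.03, 10.05 and 10.21 in NP of TonEBP +/- mice and 9.79, 10.24 and 10.21 in NP of WT mice. On AF arrays, the signal was 9.89, 10.05 and 10.22 in TonEBP +/- mice and 10.32, 10.06 and 10.39 in WT mice. Its groups overlapped in each comparison. Il17b, an IL-17 family member that binds Il17rb, was at 8.00, 8.15 and 7.33 in NP of TonEBP +/- mice and 8.25, 8.31 and 8.15 in NP of WT mice. In AF it was at 9.24, 9.15 and 7.97 in TonEBP +/- mice and 8.63, 9.40 and 9.16 in WT mice. Il17b was lower in NP as deposited (-0.96 in TonEBP +/-, adjusted p = 0.0147, and -0.82 in WT, adjusted p = 0.0305), but with array medians subtracted its changes were -0.27 and -0.08 and did not pass.

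In AF, Il1rn, Il10rb and Il18rap were higher in TonEBP +/- than in WT mice, 2.09- to 2.79-fold, and Il12rb2 was lower, 1.90-fold. With Il1f8 these were 5 of 76 interleukin genes called at an adjusted p under 0.05, against 6.07% of all clusters. The 3 higher genes compare with 2.76% of all clusters called higher and the 2 lower ones with 3.31% called lower, so the share of interleukin genes called (6.58%) was near that of the array. The median change of the 76 was -0.05 log2 and that of all clusters -0.04. By role, 1 of 4 antagonists or binding proteins, 3 of 36 receptor chains and 1 of 36 ligands were called.

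Il1rn, the IL-1 receptor antagonist, was at 10.00, 9.43 and 11.09 in AF of TonEBP +/- mice, against 9.03, 8.20 and 8.85 in AF of WT mice. Every TonEBP +/- array lay above every WT array, and the change was 1.48 (SE 0.36, 95% CI 0.72 to 2.24, adjusted p = 0.0286). The antagonist rose without a called change in the cytokine it opposes: Il1b was at 14.96, 13.15 and 14.19 in AF of TonEBP +/- mice, against 15.31, 12.96 and 14.49 in AF of WT mice. These groups overlapped, with a change of -0.15 (SE 0.68, 95% CI -1.60 to 1.30, adjusted p = 0.922). Il1r1, the signalling receptor that both bind, was at 8.13, 8.10 and 8.88 in AF of TonEBP +/- mice, against 8.48, 8.66 and 8.46 in AF of WT mice. Its change was -0.16 (SE 0.25, 95% CI -0.70 to 0.37, adjusted p = 0.746). Il18rap, the accessory chain of the IL-18 receptor, was at 10.25, 10.34 and 11.17 in AF of TonEBP +/- mice, against 9.89, 9.23 and 9.46 in AF of WT mice. Its TonEBP +/- arrays were again all higher, with a change of 1.06 (SE 0.28, 95% CI 0.46 to 1.66, adjusted p = 0.0396). Il10rb, the chain that the receptors of IL-10, IL-22 and the lambda interferons share, was at 11.08, 10.32 and 11.52 in AF of TonEBP +/- mice, against 10.28, 9.28 and 9.85 in AF of WT mice. The groups did not overlap, and the change was 1.17 (SE 0.32, 95% CI 0.50 to 1.84, adjusted p = 0.0406). Il12rb2, the chain that completes the IL-12 receptor and marks T helper cells of the interferon gamma type, was at 7.96, 8.51 and 7.65 in AF of TonEBP +/- mice, against 9.05, 8.98 and 8.86 in AF of WT mice. All WT arrays of Il12rb2 were above background but only 1 TonEBP +/- array was, and the change was -0.93 (SE 0.23, 95% CI -1.42 to -0.43, adjusted p = 0.0325). Il1f8 (IL-36 beta), named here because it was called and not by the naming rule, was below background on every array, so no change is given for it.

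**Figure D2:**
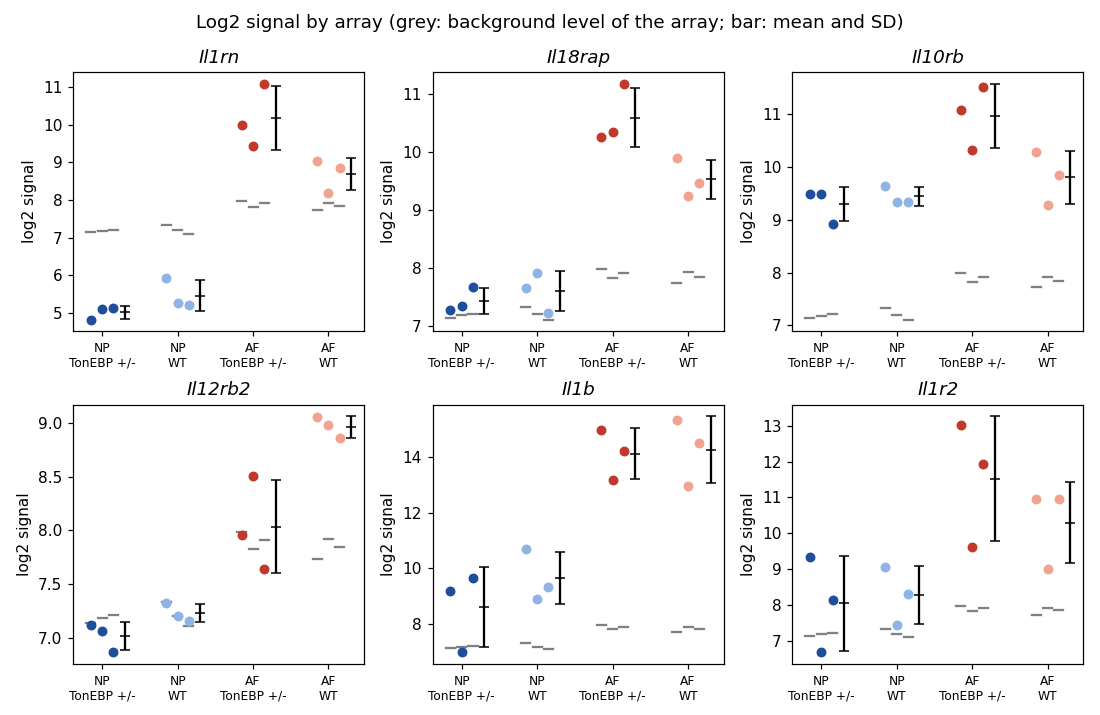
Log2 signal of 6 interleukin genes on each of the 12 arrays (points), with the array's background level in grey and the group mean ± SD beside the points (n = 3 per group; NP left of AF, TonEBP +/- left of WT). In AF, the TonEBP +/- points of Il1rn, Il18rap and Il10rb lie above the WT points and those of Il12rb2 below, while the points of Il1b and Il1r2 overlap between genotypes.

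In AF 4 receptor chains came near the threshold without passing it. Il18r1, the IL-18 binding chain, was at 7.77, 8.46 and 8.40 in AF of TonEBP +/- mice, against 6.64, 6.57 and 7.78 in AF of WT mice. It was above background on 2 TonEBP +/- arrays and no WT array, with an adjusted p of 0.0517. Il1rap, the co-receptor of the IL-1, IL-33 and IL-36 receptors, was at 8.74, 8.29 and 10.00 in AF of TonEBP +/- mice, against 8.33, 7.87 and 6.79 in AF of WT mice. The change was 1.35 (SE 0.41, 95% CI 0.48 to 2.21, adjusted p = 0.061). Il4ra, the IL-4 binding chain, was at 9.64, 10.77 and 11.54 in AF of TonEBP +/- mice, against 9.69, 9.39 and 9.38 in AF of WT mice. The change was 1.16 (SE 0.36, 95% CI 0.40 to 1.93, adjusted p = 0.0663). The groups overlapped for all 3 of these genes. Il20rb, a chain of the IL-19, IL-20 and IL-24 receptors, was at 7.68, 7.96 and 7.13 in AF of TonEBP +/- mice, against 8.32, 8.36 and 8.25 in AF of WT mice. The groups did not overlap, and the change was -0.72 (SE 0.25, 95% CI -1.24 to -0.20, adjusted p = 0.0906). The decoy Il1r2 spread more widely within groups. It was at 13.02, 9.61 and 11.92 in AF of TonEBP +/- mice, against 10.96, 9.00 and 10.94 in AF of WT mice. The change was 1.21 (SE 0.77, 95% CI -0.43 to 2.85, adjusted p = 0.371). At an unadjusted p under 0.05 stood 13 of 76 interleukin genes (17.1%) and 23.2% of all clusters.

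The AF calls depended on the fit, which takes 1 spread per gene from all 12 arrays, NP included. The SD of Il1rn was 0.85 in AF of TonEBP +/- mice and 0.44 in AF of WT mice. In NP, where Il1rn was below background, its SD was 0.17 in TonEBP +/- and 0.41 in WT mice. With array medians subtracted 4 genes were higher and 2 lower, and with the median of the background probe sets subtracted 1 was higher and 3 lower, Il10rb and Il18rap having lost their calls (adjusted p = 0.0817 and 0.0937). With the 6 AF arrays fitted alone, 0 of 76 genes were called (and 3 of 22206 clusters), and the adjusted p was 0.127 for Il1rn, 0.142 for Il18rap, 0.149 for Il10rb and 0.145 for Il12rb2. Leaving out 1 array at a time gave 0 to 13 calls: 0 without AF array 2 of WT or AF array 3 of TonEBP +/- mice, 13 without AF array 2 of TonEBP +/- mice, 1 without AF array 1 of TonEBP +/- mice, and 2 without AF array 1 or AF array 3 of WT mice. Omitting NP array 1 of WT mice, or NP array 1, 2 or 3 of TonEBP +/- mice, left 3 calls each. Of the 12 omissions, Il1rn kept its call in 8, Il12rb2 in 7, Il18rap in 3 and Il10rb in 2, always with the same direction.

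**Figure D3:**
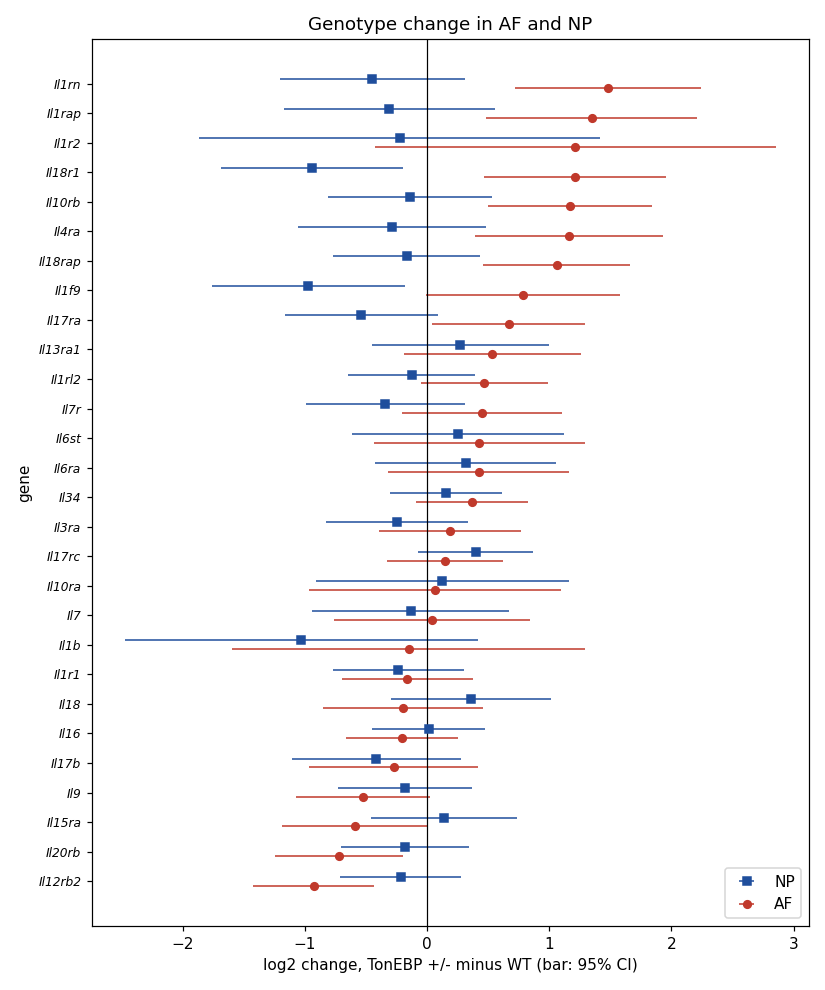
Log2 change, TonEBP +/- minus WT, with its 95% confidence interval in NP (blue squares) and in AF (red circles) for the 28 interleukin genes above background on at least 2 of 3 arrays of a group, sorted by the AF change. Intervals of Il1rn, Il18rap, Il10rb and Il12rb2 in AF keep clear of 0, those in NP mostly span it, intervals are not adjusted for the number of genes, and changes of genes below background in a group are not exact.

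The region before a gene's start is where factors such as TonEBP bind. The promoter windows of the called genes Il1rn, Il18rap, Il10rb and Il12rb2 were therefore searched, where RefSeq's table held one. The search was for TGGAAA, the core of the tonicity element that TonEBP recognizes, on both strands. Windows were RefSeq's on GRCm38.p6, 250 bases before to 50 after each start, and capitals mark a match. Il1rn has 3 annotated starts, and its upstream window and the window of the next start are shown with the single window of Il18rap because these are the called IL-1 family genes that rose.
Il1rn upstream start, chr2:24336610-24336909, + strand: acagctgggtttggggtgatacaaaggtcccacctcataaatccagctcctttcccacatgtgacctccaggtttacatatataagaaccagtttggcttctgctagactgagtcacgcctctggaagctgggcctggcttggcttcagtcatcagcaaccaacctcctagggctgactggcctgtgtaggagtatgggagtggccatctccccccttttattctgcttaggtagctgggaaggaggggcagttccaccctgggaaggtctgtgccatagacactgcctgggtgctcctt
Il1rn next start, chr2:24345041-24345340, + strand: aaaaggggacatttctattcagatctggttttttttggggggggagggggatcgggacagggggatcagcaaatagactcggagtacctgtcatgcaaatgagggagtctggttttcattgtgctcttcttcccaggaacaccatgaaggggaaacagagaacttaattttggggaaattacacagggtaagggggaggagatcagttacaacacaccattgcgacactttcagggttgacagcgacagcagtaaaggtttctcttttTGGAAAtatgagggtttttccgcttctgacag
Il18rap, chr1:40515112-40515411, + strand: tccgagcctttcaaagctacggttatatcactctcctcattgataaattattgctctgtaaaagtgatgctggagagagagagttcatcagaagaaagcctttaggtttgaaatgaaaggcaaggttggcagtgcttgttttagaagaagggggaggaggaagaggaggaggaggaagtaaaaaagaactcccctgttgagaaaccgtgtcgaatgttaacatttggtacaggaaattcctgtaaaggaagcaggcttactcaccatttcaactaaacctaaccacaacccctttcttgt
The upstream Il1rn window and the Il18rap window hold no match, and neither does that of Il12rb2. Il10rb was not searched, as the table held no window for it, and no result is given for Il1f8, the other called gene. The next Il1rn window holds 1, at position 19 after the start, and the last window, which overlaps it, holds the same copy. Of all 32851 windows, 21.4% hold a match, and of the 72 windows found for 59 interleukin genes, 24 (33.3%) do. These are matches of letters in short windows and not binding sites.

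In NP, no interleukin gene was called between TonEBP +/- and WT mice with limma (0 of 76, against 0.113% of all clusters). At an unadjusted p under 0.05 stood 2 of 76 genes, Il18r1 and Il1f9 (2.63%, against 3.72% of all clusters), and every other fit and omission run also gave 0 calls. Il1rn was at 4.83, 5.10 and 5.13 in NP of TonEBP +/- mice, against 5.94, 5.26 and 5.20 in NP of WT mice, below background on each array. Il18rap was at 7.28, 7.34 and 7.68 in NP of TonEBP +/- mice, against 7.65, 7.91 and 7.23 in NP of WT mice. The change was -0.16 (SE 0.28, 95% CI -0.77 to 0.44, adjusted p = 1). Il10rb was at 9.50, 9.48 and 8.93 in NP of TonEBP +/- mice, against 9.65, 9.34 and 9.34 in NP of WT mice. The change was -0.14 (SE 0.32, 95% CI -0.81 to 0.53, adjusted p = 1). Il1b was at 9.18, 7.00 and 9.68 in NP of TonEBP +/- mice, against 10.69, 8.92 and 9.33 in NP of WT mice. Its wide spread left an interval of -2.47 to 0.42. For receptor chains with an excess in NP, the genotype change was 0.25 (SE 0.41, 95% CI -0.61 to 1.12, adjusted p = 1) for Il6st and 0.27 (SE 0.34, 95% CI -0.45 to 0.99, adjusted p = 1) for Il13ra1. For Il18, Il6ra and Il17rc the changes were 0.36, 0.32 and 0.40, each with an interval that included 0.

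The change with genotype was compared between NP and AF by the interaction of the fit, NP change minus AF change. No interleukin gene passed (0 of 76, against 0.887% of all clusters), and 12 of 76 had an unadjusted p under 0.05 (15.8%, against 14% of all clusters). Il18rap, above background on all arrays, had -1.22 (SE 0.40, 95% CI -2.08 to -0.37, adjusted p = 0.163). Il10rb had -1.31 (SE 0.45, 95% CI -2.26 to -0.36, adjusted p = 0.181). The adjusted p was 0.0533 for Il18r1, 0.09 for Il1rn and 0.131 for Il1f9. No size is given for these 3 genes, since Il1rn and Il18r1 were above background on no NP array and Il1f9 on 1. A limma fit with an intensity trend and robust prior called 1 gene, and omitting AF array 1 or AF array 3 of WT mice also called 1, while omitting AF array 2 of TonEBP +/- mice called 5.

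More interleukin genes differed between the tissues than between the genotypes. Il13ra1, Il6st, Il17rc, Il10ra, Il18 and Il7 were higher in NP than in AF in both genotypes, and Il1b, Il1f9, Il1rn, Il17ra, Il18rap, Il4ra and Il7r were lower. As deposited, 66 of 76 genes were called in TonEBP +/- mice (8 higher and 58 lower in NP) and 62 in WT mice (7 higher and 55 lower), against 74.3% and 78.3% of all clusters. With array medians subtracted the calls were 44 (12 higher, 32 lower) in TonEBP +/- and 45 (11 higher, 34 lower) in WT mice, and with the median of the background probe sets subtracted 39 (13 higher, 26 lower) and 39 (10 higher, 29 lower). Called in the same direction on both scales were 8 higher and 32 lower genes in TonEBP +/- mice (10.5% and 42.1%, against 20.0% and 25.3% of all clusters) and 7 higher and 34 lower in WT mice (9.21% and 44.7%, against 22.2% and 31.3%). Of the 25 genes above background on at least 2 of 3 arrays of a compared group, 7 were higher and 12 lower in TonEBP +/- mice and 7 higher and 10 lower in WT mice. Most of the genes called lower were not among these 25. The excess of lower genes over the share of all clusters thus rests mostly on signals for which no change can be read. The matching share over clusters above background was not computed. The median change of all clusters was -0.75 log2 in TonEBP +/- and -0.84 in WT mice, and that of the 76 genes was -1.17 and -1.26. In such bulk tissue, fewer cells of a type and less RNA per cell cannot be told apart.

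Of the genes higher in NP in both genotypes, 4 were receptor chains. Il13ra1, which binds IL-13 and pairs with Il4ra, was at 14.54, 14.39 and 14.40 in NP of TonEBP +/- mice and 14.13, 14.14 and 14.24 in NP of WT mice. Its AF values were 10.04, 8.71 and 10.24 in TonEBP +/- mice and 9.72, 8.80 and 8.86 in WT mice. The NP arrays lay within 0.5 log2 of each other and at least 3.8 above every AF array. The change was 4.78 in TonEBP +/- and 5.04 in WT mice as deposited, and 5.47 and 5.78 with array medians subtracted. Il6st, or gp130, the signal chain of IL-6, IL-11 and LIF family receptors, was at 13.83, 13.67 and 13.69 in NP of TonEBP +/- mice and 13.69, 12.99 and 13.75 in NP of WT mice. The AF arrays had 10.73, 11.14 and 12.51 in TonEBP +/- mice and 10.30, 11.06 and 11.73 in WT mice. It was 4.82-fold higher in NP of TonEBP +/- and 5.45-fold higher in NP of WT mice as deposited (adjusted p = 0.000147 and 6.06e-05), with no overlap between tissues, and 7.78- and 9.11-fold higher with array medians subtracted. Its partner Il6ra was at 10.66, 9.74 and 10.62 in NP of TonEBP +/- mice and 10.67, 9.88 and 9.53 in NP of WT mice. AF signals of the gene were 9.90, 9.04 and 9.86 in TonEBP +/- mice and 9.55, 8.70 and 9.28 in WT mice. The change of Il6ra was 0.74 in TonEBP +/- mice (adjusted p = 0.065) and 0.85 in WT mice (adjusted p = 0.0361) as deposited. With array medians subtracted it was 1.43 (adjusted p = 0.00339) and 1.59 (adjusted p = 0.00135), and both passed. As deposited, the WT call was lost without AF array 2, AF array 3, NP array 1 or NP array 2 of WT mice.

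The chains of the IL-17 receptor went opposite ways. Il17rc was at 10.81, 10.52 and 10.37 in NP of TonEBP +/- mice and 9.96, 10.21 and 10.34 in NP of WT mice. On AF arrays, the signal was 8.68, 8.24 and 8.16 in TonEBP +/- mice and 8.21, 8.22 and 8.21 in WT mice. It was 4.61-fold higher in NP of TonEBP +/- mice and 3.88-fold higher in NP of WT mice as deposited. Il17ra, the chain with which it pairs, was at 8.15, 7.30 and 8.08 in NP of TonEBP +/- mice and 8.33, 8.71 and 8.11 in NP of WT mice. In AF it was at 11.84, 11.45 and 12.12 in TonEBP +/- mice and 11.54, 10.68 and 11.18 in WT mice. Il17ra was 15.6-fold lower in NP of TonEBP +/- mice (log2 -3.96, SE 0.30) and 6.74-fold lower in NP of WT mice (log2 -2.75, SE 0.30) as deposited. With array medians subtracted, Il17ra kept its sign at -3.27 and -2.01, and Il17rc at 2.90 and 2.70.

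The IL-10 receptor also split in TonEBP +/- mice, though not under every setting, and in WT mice Il10rb was not called between the tissues. Il10ra, the ligand-binding chain, was at 11.36, 9.25 and 9.43 in NP of TonEBP +/- mice and 10.43, 9.26 and 9.98 in NP of WT mice. Its AF values were 9.28, 8.31 and 8.31 in TonEBP +/- mice and 9.24, 8.43 and 8.04 in WT mice. Its changes were 1.38 in TonEBP +/- and 1.32 in WT mice (adjusted p = 0.0182 and 0.0215) as deposited, and 2.07 and 2.06 with array medians subtracted. NP array 1 of TonEBP +/- mice was the highest, without it the TonEBP +/- change was 0.70 with adjusted p = 0.136. The call also fell away without AF array 2 or AF array 3 of TonEBP +/- mice or with arrays weighted. In WT mice it fell away without AF array 2, AF array 3, NP array 1 or NP array 3 of WT mice. Il10rb was at 9.50, 9.48 and 8.93 in NP of TonEBP +/- mice, against 9.65, 9.34 and 9.34 in NP of WT mice, and its AF values are given above. It was lower in NP of TonEBP +/- mice (-1.67, adjusted p = 0.000229), a call that was lost with the median of the background probe sets subtracted (-0.77, adjusted p = 0.0603), while the WT change was -0.36 as deposited and 0.38 with array medians subtracted, which did not pass. Il15ra, which presents IL-15 to neighbouring cells, was at 9.74, 9.25 and 9.46 in NP of TonEBP +/- mice and 9.15, 9.24 and 9.65 in NP of WT mice. The AF arrays had 9.03, 9.10 and 8.02 in TonEBP +/- mice and 9.43, 9.12 and 9.37 in WT mice. Its NP excess passed on both scales in TonEBP +/- mice (0.77 and 1.46), not as deposited in WT mice (0.04), and not without AF array 3 of TonEBP +/- mice (0.42, adjusted p = 0.123) or NP array 1 of TonEBP +/- mice.

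Il18 and Il7 were the ligands higher in NP. Il18, an IL-1 family cytokine that needs caspase-1 for release, was at 8.89, 8.45 and 9.04 in NP of TonEBP +/- mice and 8.57, 8.09 and 8.64 in NP of WT mice. AF signals of the gene were 6.79, 6.42 and 7.63 in TonEBP +/- mice and 7.36, 6.71 and 7.37 in WT mice. It was above background on 6 of 6 NP arrays and 0 of 6 AF arrays, so its NP level was at least 1.85-fold higher in TonEBP +/- mice and at least 1.51-fold higher in WT mice as deposited, and 2.98- and 2.52-fold with array medians subtracted. Lower bounds below are as deposited, followed in parentheses by the bound with array medians subtracted. Il7, a growth factor of lymphocytes, was at 8.04, 8.62 and 7.90 in NP of TonEBP +/- mice and 8.54, 8.04 and 8.37 in NP of WT mice. On AF arrays, the signal was 5.99, 6.91 and 6.94 in TonEBP +/- mice and 7.60, 6.04 and 6.09 in WT mice. It too was above background only on the 6 NP arrays, at least 1.21-fold (1.95) higher in TonEBP +/- and at least 1.4-fold (2.33) higher in WT mice. The receptors of both ligands lay the other way. Il7r was at 6.23, 6.09 and 6.51 in NP of TonEBP +/- mice and 6.49, 6.53 and 6.82 in NP of WT mice. In AF it was at 9.57, 8.24 and 9.34 in TonEBP +/- mice and 8.91, 8.66 and 8.23 in WT mice. It was below background on all NP arrays, and at least 3.65-fold (2.26) lower in NP of TonEBP +/- mice and at least 2.61-fold (1.56) lower in NP of WT mice. Il18rap was 8.92-fold lower in NP of TonEBP +/- mice (log2 -3.16, SE 0.28) and 3.82-fold lower in NP of WT mice (log2 -1.93, SE 0.28) as deposited, and 5.53- and 2.29-fold lower with array medians subtracted. Il18r1 was at 3.99, 4.75 and 4.79 in NP of TonEBP +/- mice, against 5.67, 4.90 and 5.77 in NP of WT mice. It was below background there, and at least 2.04-fold (1.26) lower in NP than in AF of TonEBP +/- mice.

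**Figure D4:**
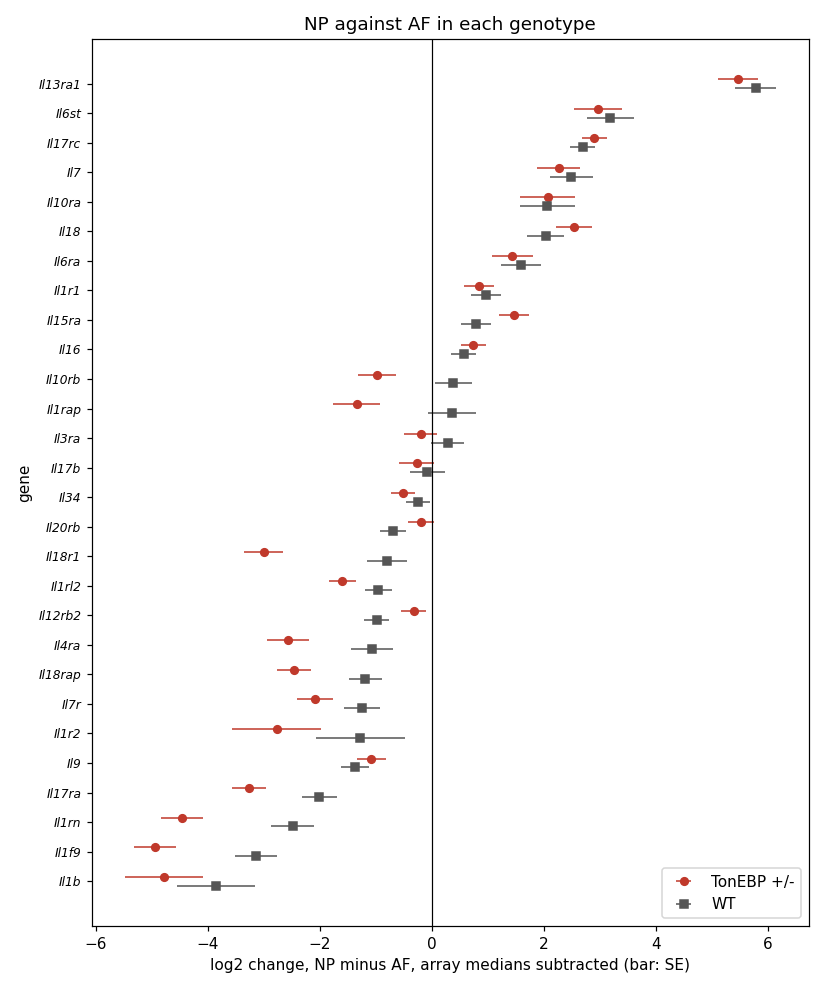
Log2 change, NP minus AF, after subtraction of array medians, with its standard error, in TonEBP +/- mice (red circles) and WT mice (grey squares) for the 28 interleukin genes above background on at least 2 of 3 arrays of a group, sorted by the WT change. Il13ra1 lies far to the right and Il1b and Il1f9 far to the left, and for genes below background in a tissue the plotted change is not exact.

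IL-1 and IL-36 genes were lower in NP. Il1b was at 9.18, 7.00 and 9.68 in NP of TonEBP +/- mice and 10.69, 8.92 and 9.33 in NP of WT mice. Its AF values were 14.96, 13.15 and 14.19 in TonEBP +/- mice and 15.31, 12.96 and 14.49 in WT mice. It was 44.7-fold lower in NP of TonEBP +/- mice (log2 -5.48, SE 0.68) and 24.3-fold lower in NP of WT mice (log2 -4.61, SE 0.68) as deposited, with no overlap between tissues. After array medians were subtracted it was 27.7- and 14.6-fold lower. NP array 2 of TonEBP +/- mice was the only array on which Il1b was below background. Il1rn, at 4.83, 5.10 and 5.13 in NP of TonEBP +/- mice, against 5.94, 5.26 and 5.20 in NP of WT mice, was at least 7.97-fold (4.94) lower in NP than in AF of TonEBP +/- mice and at least 2.79-fold (1.67) lower in WT mice. Il1f9, which encodes IL-36 gamma, was at 5.96, 6.13 and 6.22 in NP of TonEBP +/- mice and 7.21, 7.57 and 6.44 in NP of WT mice. The AF arrays had 11.04, 12.12 and 12.04 in TonEBP +/- mice and 11.76, 10.38 and 10.71 in WT mice. It was at least 23.5-fold (14.5) lower in NP of TonEBP +/- mice and, with 1 of 3 NP arrays above background, had a change of -3.88 in WT mice as deposited and -3.14 with array medians subtracted. Il1rl2, the IL-36 receptor, was at 6.06, 6.22 and 5.73 in NP of TonEBP +/- mice and 6.13, 6.21 and 6.04 in NP of WT mice. AF signals of the gene were 7.81, 8.75 and 8.33 in TonEBP +/- mice and 7.81, 7.82 and 7.84 in WT mice. It was at least 2.17-fold (1.34) lower in NP of TonEBP +/- mice.

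Among the receptors of IL-1 itself the tissues differed less evenly. Il1r1 was at 8.62, 8.58 and 8.36 in NP of TonEBP +/- mice, against 8.62, 8.52 and 9.13 in NP of WT mice, close to its AF values. Its change was 0.15 in TonEBP +/- and 0.22 in WT mice as deposited, which did not pass, and 0.84 and 0.96 with array medians subtracted, which did. Il1r2 was at 9.33, 6.68 and 8.15 in NP of TonEBP +/- mice, against 9.07, 7.44 and 8.31 in NP of WT mice. It was lower than in AF on both scales in TonEBP +/- mice (-3.46 as deposited, -2.77 with array medians subtracted). In WT mice Il1r2 passed as deposited (-2.03) but not with array medians subtracted (-1.29). Il1rap was at 7.32, 7.04 and 6.57 in NP of TonEBP +/- mice, against 7.33, 7.33 and 7.20 in NP of WT mice. The change was -2.04 in TonEBP +/- mice (adjusted p = 0.000376) and -0.38 in WT mice (adjusted p = 0.401) as deposited. On values with array medians subtracted it was -1.35 (adjusted p = 0.0136) and 0.36 (adjusted p = 0.468), so the sign in WT mice turned.

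Further chains were lower in NP. Il4ra was at 7.54, 7.01 and 7.63 in NP of TonEBP +/- mice, against 7.39, 7.95 and 7.70 in NP of WT mice. The change was -3.26 in TonEBP +/- and -1.81 in WT mice as deposited and -2.57 and -1.07 with array medians subtracted. Il12rb2 was at 7.12, 7.07 and 6.87 in NP of TonEBP +/- mice, against 7.33, 7.21 and 7.16 in NP of WT mice. The change was -1.73 in WT mice as deposited and -0.99 with array medians subtracted, and the level at least 1.81-fold (1.12) lower in NP of TonEBP +/- mice, where the change with array medians subtracted did not pass. Il20rb was at 6.97, 6.48 and 6.64 in NP of TonEBP +/- mice, against 7.10, 6.91 and 6.63 in NP of WT mice. It was below background there, and at least 2.13-fold (1.28) lower in NP of WT mice. Il9, a T cell and mast cell cytokine, was at 6.05, 5.43 and 5.47 in NP of TonEBP +/- mice and 5.42, 5.98 and 6.10 in NP of WT mice. On AF arrays, the signal was 7.62, 7.61 and 7.04 in TonEBP +/- mice and 8.04, 7.86 and 7.95 in WT mice. It was above background on 2 AF arrays of WT mice alone and at least 1.66-fold lower in NP of WT mice as deposited, with no bound above 1 after array medians were subtracted. Il34, a ligand of the macrophage colony-stimulating factor receptor, was at 7.03, 7.20 and 6.75 in NP of TonEBP +/- mice and 7.04, 6.72 and 6.75 in NP of WT mice. In AF it was at 8.07, 8.28 and 8.26 in TonEBP +/- mice and 7.71, 8.02 and 7.78 in WT mice. Its NP deficit in TonEBP +/- mice passed as deposited (-1.21) and not with array medians subtracted (-0.52, adjusted p = 0.0503). Il3ra, the IL-3 binding chain, was at 7.78, 7.31 and 7.86 in NP of TonEBP +/- mice and 7.97, 7.90 and 7.81 in NP of WT mice. Its AF values were 8.34, 8.24 and 9.04 in TonEBP +/- mice and 8.05, 8.17 and 8.85 in WT mice. It likewise passed in TonEBP +/- mice as deposited (-0.90) and not with array medians subtracted (-0.21).

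Several of these genes are neighbours. In RefSeq's order on chromosome 1, Il1r2, Il1r1, Il1rl2, Il18r1 and Il18rap lie in a row with Il1rl1, which was not analysed here. In AF the genotype changes were 1.21 for Il1r2, -0.16 for Il1r1, 0.47 for Il1rl2 and 1.06 for Il18rap, and Il18rap alone was called. On chromosome 2, Il1f8, Il1f9, Il1f6, Il1f5, Il1f10 and Il1rn follow each other, and of these Il1f9 and Il1rn were above background on all 6 AF arrays.

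Genes that carry interleukin signals, a list of 76 of which 68 were measured, were looked at beside the receptors. In AF, 5 were higher in TonEBP +/- mice and 0 lower (7.35%, against 6.07% of all clusters): the LIF receptor chain Lifr (1.68), the GM-CSF receptor chain Csf2ra (1.84), the interferon-activated Stat2 (1.11), the phosphatase Ptpn6 (1.82) and the IL-1 and Toll pathway inhibitor Irak3 (1.65). Their median change in AF was 0.42 log2, against -0.04 for all clusters. The AF arrays fitted alone gave 0 calls, and single omissions 0 to 22: 0 without AF array 2 of WT or AF array 3 of TonEBP +/- mice, 2 without AF array 1 of TonEBP +/- mice, 3 without AF array 3 of WT mice, and 22 without AF array 2 of TonEBP +/- mice. In NP 0 of 68 were called with limma, against 0.113% of all clusters (1 called without NP array 3 of WT mice). An unadjusted p under 0.05 was reached by 5 of 68, and the share of all clusters that did so in NP is given above. The NP change was lower than the AF change for Csf2ra (-2.41, adjusted p = 0.0421) and Ptpn6 (adjusted p = 0.0223). No size is given for Ptpn6, which was above background on no NP array of TonEBP +/- mice and on 1 NP array of WT mice. Both calls were lost without AF array 2, AF array 3, NP array 1 or NP array 2 of WT mice. They were also lost without NP array 1 or NP array 2 of TonEBP +/- mice. With array medians subtracted, or without AF array 1 or NP array 3 of TonEBP +/- mice, 1 gene passed, and without AF array 2 of TonEBP +/- mice 10 did. Without NP array 3 of WT mice 2 genes passed, 1 with a higher and 1 with a lower NP change. Csf2ra and Ptpn6 were thus not both kept there.

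Between the tissues, 8 signalling genes were higher and 28 lower in NP of TonEBP +/- mice on both scales (11.8% and 41.2%), and 14 higher and 18 lower in NP of WT mice (20.6% and 26.5%). Over all clusters these shares were 20.0% and 25.3% in TonEBP +/- and 22.2% and 31.3% in WT mice. As deposited the split was 8 higher and 36 lower in TonEBP +/- and 14 higher and 36 lower in WT mice, and with array medians subtracted 19 and 28 in TonEBP +/- and 21 and 18 in WT mice. Changes and lower bounds that follow are with array medians subtracted, TonEBP +/- before WT. Receptor chains of the gp130 family were higher, Lifr by 2.95 and 4.52 and the oncostatin M receptor Osmr, above background on no AF array, at least 7.46- and 4.72-fold. So were the IL-4 and IL-13 signal transducer Stat6 (2.13 and 3.09), the NF-kappa B subunit Rela (2.24 and 3.04), its inhibitor Nfkbib (1.58 and 2.05), the kinase Irak2 (2.46 and 2.76) and Socs6 (2.33 and 1.68). Higher in WT mice alone by these tests were Stat3, the main transducer of gp130 (2.05), Map3k7 (1.28), Tab3 (1.31), Ptpn11 (1.62), Sort1 (1.97) and Socs4, at least 2.05-fold. Higher in TonEBP +/- mice alone was Socs3, the feedback inhibitor of gp130, at least 3.05-fold. The interaction did not pass for any of these 7 genes, so the genotypes are not shown to differ in them. Lower in both genotypes were the G-CSF receptor Csf3r (-5.004 and -2.11), the common beta chain Csf2rb (-3.68 and -2.48), Osm (-4.43 and -3.28), Cd4 (-1.30 and -1.21) and Ifngr1 (-1.53 and -0.57). Above background on no NP array were Casp1, which cleaves the IL-1 beta and IL-18 precursors and was at least 3.08- and 1.52-fold lower, the pore former Gsdmd (2.84 and 1.71), the inflammasome sensor Nlrp3 (2.19 and 1.88) and Stat4 (2.1 and 1.98). Sigirr was also below background there and called lower, with no bound above 1 in TonEBP +/- mice. In NP of TonEBP +/- mice Ptpn6 and Socs2 were above background on no array and at least 22.8- and 4.9-fold lower, and their WT changes were -2.80 and -1.69. Lower in TonEBP +/- mice alone by these tests were Irak3 (-1.24), Myd88 (-1.49), Nfkbiz (-1.70), Stat2 (-1.0003), Stat5b (-0.76), Csf1 (-1.98), Csf2ra (-1.18) and Ifngr2 (-1.42), of which the interaction passed for Csf2ra alone. Ebi3, a subunit of IL-27 and IL-35, was at least 2.06-fold lower in NP of TonEBP +/- mice, and Casp4 at least 3.52-fold. Neither was above background in NP of TonEBP +/- mice.

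Some markers of other cells were also called between genotypes in AF, beside Il1rn, Il10rb and Il18rap. The mean log2 signal of 10 genes of neutrophils and their precursors ran from 8.54 to 10.05 in NP of TonEBP +/- mice and 10.78 to 12.18 in NP of WT mice, and from 16.06 to 16.80 in AF of TonEBP +/- mice and 14.98 to 15.50 in AF of WT mice. In AF 4 of the 10 (Prtn3, Ctsg, Camp and Cebpe) were higher in TonEBP +/- mice, against 2.76% of all clusters. In NP 3 (Mpo, Elane and Ctsg) were lower, against 0.113% of all clusters called there in either direction. The change was lower in NP than in AF for 7, against 0.887% of all clusters called in either direction. All 10 were above background on at least 2 of 3 AF arrays of TonEBP +/- mice, 9 in AF of WT mice, where Cebpe was on none, 9 in NP of WT mice and 6 in NP of TonEBP +/- mice. The mean of 7 macrophage markers was 6.54 to 7.20 in NP of TonEBP +/- mice and 6.89 to 7.53 in NP of WT mice, and 9.45 to 10.48 in AF of TonEBP +/- mice and 8.36 to 9.35 in AF of WT mice, and of these Csf1r alone was called in AF. Between tissues, all 10 neutrophil genes and 6 of 7 macrophage genes were lower in NP of TonEBP +/- mice on both scales. In WT mice all 10 neutrophil genes and 5 of 7 macrophage genes were lower in NP, against 31.3% of all clusters. The macrophage gene Csf1r went the other way there, higher in NP on both scales (2.71 as deposited). For mast cells, erythroid cells, T and NK cells, B and plasma cells, endothelium and muscle, 3 of 4, 4 of 4, 6 of 7, 4 of 4, 5 of 5 and 2 of 5 measured genes were called lower on both scales in TonEBP +/- mice, against 25.3% of all clusters, although no muscle gene was above background on 2 arrays of a group. For the first 5 of these lists, 1 of 4, 3 of 4, 3 of 7, 3 of 4 and 5 of 5 genes were above background on at least 2 of 3 AF arrays of TonEBP +/- mice. No change can be read for the rest. In AF no erythroid, mast cell or muscle gene was called between genotypes, and Jchain of plasma cells (1.67), Nkg7 of cytotoxic lymphocytes (1.28) and Kdr of endothelium were called higher in TonEBP +/- mice, Kdr being above background on no WT array. In NP the erythroid gene Slc4a1 was also lower in TonEBP +/- mice (-3.03, adjusted p = 0.0109). The change was lower in NP than in AF for Slc4a1 (-2.88, adjusted p = 0.0331) and Jchain (adjusted p = 0.0322). No size is given for Jchain, which was above background on no NP array of TonEBP +/- mice. Of the AF markers, Col1a1 (4.18) and Col1a2 (3.70) were higher and Fmod (-2.11) lower in AF of TonEBP +/- mice. The interaction also passed for Col1a1 (-4.23, adjusted p = 0.0412) and Fmod (2.28, adjusted p = 0.0173). The NP marker Krt19 was called lower in AF of TonEBP +/- mice (-2.19). It was at 11.37, 8.26 and 8.27 in AF of WT mice and above background on 1 AF array of TonEBP +/- mice. The mean of the NP markers was 8.52 to 8.94 on AF arrays of TonEBP +/- mice, against 8.96 to 10.34 on those of WT mice, where array 1 was the highest. The part of any of these cells in the interleukin changes was not tested.

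**Figure D5:**
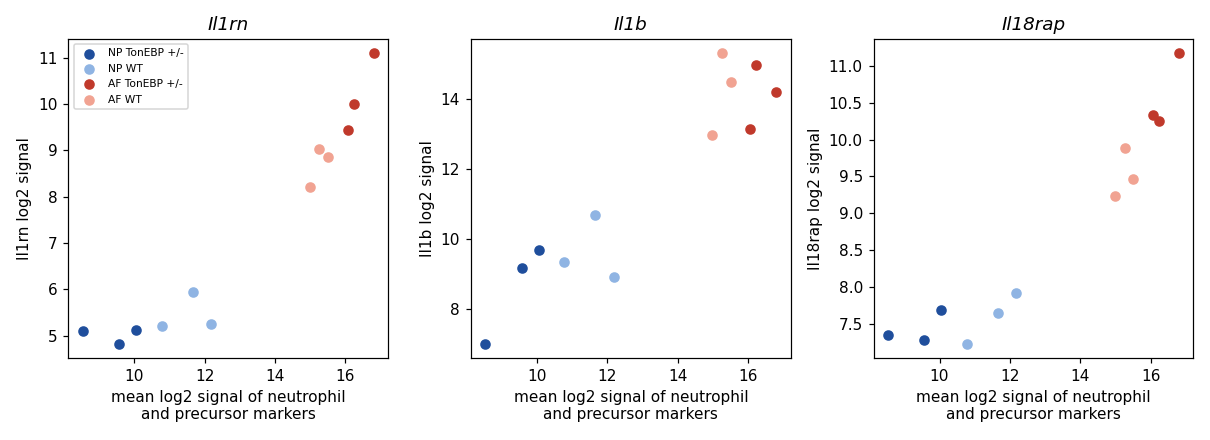
Log2 signal of Il1rn, Il1b and Il18rap on each array (points, coloured by group, n = 3 each) against the mean log2 signal of 10 neutrophil and precursor genes. NP arrays lie at 8.54 to 12.18 on the horizontal axis and AF arrays at 14.98 to 16.80, and Il1rn and Il18rap are highest on the AF array with the highest marker mean.

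The genes most like Il1rn over the 12 arrays, among 9886 genes above background throughout some group, were Myo1f, a myosin of white blood cells (r = 0.995), Alox5ap, the activating protein of leukotriene synthesis (r = 0.995), and Cebpe, a transcription factor of late granulocyte development (r = 0.994). Within the 6 AF arrays their r was 0.99, 0.99 and 0.97, although Cebpe was above background on no AF array of WT mice. None is given within NP, where Il1rn was below background, and the r over 12 arrays includes those readings. For Il1b they were Hcar2, a receptor of nicotinic acid and ketone bodies (r = 0.984), Stfa2l1, a stefin-like gene (r = 0.979), and Stk17b, a protein kinase (r = 0.978), with 0.87, 0.84 and 0.86 in NP and 0.89, 0.84 and 0.88 in AF. These are descriptions over arrays that share the tissue difference, with no test.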

How the data were processed

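RNA of 12 disc samples was measured on Clariom S Mouse arrays. The deposited values are log2 signals from RMA in Affymetrix Expression Console, per the submitters' processing notes; versions, and which arrays were normalized together, are not given in the sources used here. From these log2 values limma 3.58.1 in R 4.3.3 fitted 4 group means over 22206 clusters, with Benjamini-Hochberg adjustment over all of them, and an adjusted p under 0.05 counted as called. The fit was tested on simulated data. Figures were drawn with matplotlib 3.10.9.

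Where no array of a group was above background, the fold is a lower bound against the background level and no exact fold is given. Arrays limit the precision by their number, 3 per group. The interleukin genes and all lists were chosen with earlier results of these data known. Named with every array's value were genes called in any of 5 comparisons with at least 2 of 3 arrays of a compared group above background, the top 4 ligands and receptors by mean among those above it on at least 9 arrays (3 ligands qualified), and 10 fixed genes. Signalling genes between tissues were named when called on both scales with at least 2 of 3 arrays above background, which departs from the rule first written. Alternatives were array medians subtracted, the compared arrays alone, an intensity trend with robust prior, array weights, a filter on dim clusters, other background levels and the omission of each array. The background median subtraction was added after seeing the data.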

Additional observations from a re-analysis of the deposited data

How the results depend on the processing

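No paired analysis was possible because the labels number the samples through without shared replicate numbers and tie no NP sample to an AF sample. Between genotypes in AF, 5 interleukin genes were called: 0 with the AF arrays alone, 24 (13 higher, 11 lower) with array weights, whose estimation did not converge, and 0 to 13 over omissions. The interaction called 0, but 1 with trend and robust prior, 10 with array weights and 0 to 5 over omissions. Genotype in NP gave 0 under each setting run. Between tissues, 66 calls in TonEBP +/- and 62 in WT mice became 39 and 39 with background medians subtracted and 23 and 20 of 26 genes under the filter, which tests fewer genes; omissions gave 61 to 66 and 58 to 63. Of the interleukin genes, 13 were above background on all arrays, 5 with the highest background probe set as the level and 23 with the median. Of the signalling genes in AF, 5 were called, 0 with AF arrays alone, 33 with array weights, 10 of 53 under the filter and 0 to 22 over omissions. Their interaction gave 2, 1 with array medians subtracted, 12 with array weights and 0 to 10 over omissions. In NP omissions gave 0 to 1. Between tissues their 50 calls in WT mice became 33 of 53 under the filter, with 42 to 51 over omissions, and those in TonEBP +/- mice ran from 44 to 49. No change of a named gene turned its sign while called. Array weights brought Il6ra and Il6 past the threshold in AF (adjusted p = 0.0421 and 0.027), although Il6 was below background. Other causes were not tested. Signals near background limit most ligands.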
